A study of Mus musculus with 6 samples.

Results

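The Hox cluster genes were examined in RET, a mouse melanoma cell line, whose 6 cultures carried either a short hairpin RNA (shRNA) against Angpt2, which encodes a secreted ligand of the receptor Tek on blood vessels, or a shRNA without a target. Members were chosen by gene symbol (Hoxa, Hoxb, Hoxc or Hoxd followed by a number) among array rows annotated with a single symbol, and each gene is represented by its row with the highest mean over the 6 arrays, so the measured level chose the row but the group difference did not. The rule gave 36 Hox genes of 22180 genes tested, with 9 in Hoxa, 10 in Hoxb, 9 in Hoxc and 8 in Hoxd. Because the row of each gene was selected on its mean signal, the levels below are a description and carry no test.

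The Angpt2 shRNA-1 group held 3 cultures of RET cells, given as strain C57BL\6, transduced with 1 hairpin against Angpt2, and the control shRNA group held 3 cultures of the same line transduced with a non-targeting hairpin. Titles of the control arrays name GFP, and its part in the construct was not analysed here. Equal cell numbers were plated and grown for 24 h, and 100 ng of total RNA from each culture was labelled and run on 1 Affymetrix Mouse Gene 2.0 ST array. The labels call the arrays biological replicates numbered 1 to 3 in each group and name no animals, so p-values measure the spread between cultures of 1 line. A single hairpin without a rescue was analysed here, and the labels do not say whether the cells were a pool or 1 clone.

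Hox genes encode homeodomain transcription factors that set the identity of cells along the body and limb axes. They lie in 4 clusters, and in each the genes at the low-numbered end are used early and towards the head, whereas those at the high-numbered end are used later, towards the tail and in the outer limb. Differentiated cells, cultured fibroblasts among them, often keep the Hox pattern of the place they came from, and Polycomb and Trithorax group proteins are known to hold that pattern off or on.

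Angpt2 had intensities of 100.2, 122 and 122 in Angpt2 shRNA-1 replicates 1, 2 and 3, against 195, 372 and 326 in control shRNA replicates 1, 2 and 3. Every Angpt2 shRNA-1 array was below every control array, with a log2 fold change of -1.33 (SE 0.21), which did not pass in the limma fit over all genes (adjusted p = 1.00) and did with the replicate number as a block (adjusted p = 0.046). Control replicate 1 was the lowest of the controls for this gene, and it also held the highest value of 25.8% of all genes, so values that moved most without it are given without it as well. Melanocyte markers were bright: 13 of 14 were above the background limit defined below, with a summed intensity of 43900 to 47236 on Angpt2 shRNA-1 arrays and 44780 to 49977 on control arrays, and Ednrb was the one under it. Most markers of other cell types were near or under that limit, with 4 of 7 fibroblast, 3 of 7 endothelial, 2 of 7 macrophage, 0 of 6 keratinocyte and 1 of 6 lymphocyte genes above it. Single markers were well over it, with a highest geometric mean of 146 among the macrophage and 114.5 among the fibroblast genes. The summed fibroblast markers ran from 533 to 563 on Angpt2 shRNA-1 arrays and from 529 to 581 on control arrays, and the summed endothelial markers from 490 to 514 and from 457 to 519. The summed macrophage markers ran from 513 to 533 on Angpt2 shRNA-1 arrays and from 497 to 576 on control arrays. The part of other cell types in the Hox signals was not tested.

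The table carries no detection calls, so a limit was set from 1436 genes with little expected transcript in melanoma cells (1105 olfactory receptor, 289 vomeronasal receptor and 42 beta-defensin genes). Their median intensity was 49.2, and the 95th percentile, 74.5, was used as the background limit. A row of probes has its own sequence and brightness, so intensities of different Hox genes are not on a common scale, and a row under the limit does not show that the gene is silent.

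Of the 36 Hox genes, 23 had a mean above the background limit (63.9%), against 59.7% of all 22180 genes. They were unevenly spread over the clusters: 9 of 9 in Hoxa, 7 of 10 in Hoxb, 3 of 9 in Hoxc and 4 of 8 in Hoxd. On every one of the 6 arrays, 16 stayed above the limit, of which 9 were in Hoxa, 5 in Hoxb, 2 in Hoxd and 0 in Hoxc. By position along the clusters the split was flatter, with 5 of 7 genes above the limit at positions 1 to 3, 8 of 14 at positions 4 to 8 and 10 of 15 at positions 9 to 13. Just inside the limit lay Hoxc10 (geometric mean intensity 75.1) and just outside it Hoxb4 (74.2).

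A stricter limit, the 99th percentile of the same reference genes (an intensity of 100.2), left 9 Hox genes, against 10080 of all genes (45.4%). These were Hoxa4, Hoxa5, Hoxa6, Hoxa7 and Hoxa10, Hoxb5, Hoxb6 and Hoxb9, and Hoxd13, with no Hoxc gene among them. Hoxa4, Hoxa5, Hoxa6, Hoxa7, Hoxb5 and Hoxb6 lie at positions 4 to 8, which hold 14 of the 36 Hox genes. Hoxa10, Hoxb9 and Hoxd13 lie at positions 9 to 13, and Hoxd13 is the last gene at the tail end of Hoxd. Whether position mattered was not tested. No Hox gene reached the 75th percentile of all genes tested, an intensity of 290. Geometric means over the 6 arrays ran from 79.5 to 225 in Hoxa, from 56.8 to 255 in Hoxb, from 55.4 to 78.5 in Hoxc and from 63.5 to 229 in Hoxd.

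**Figure D1:**
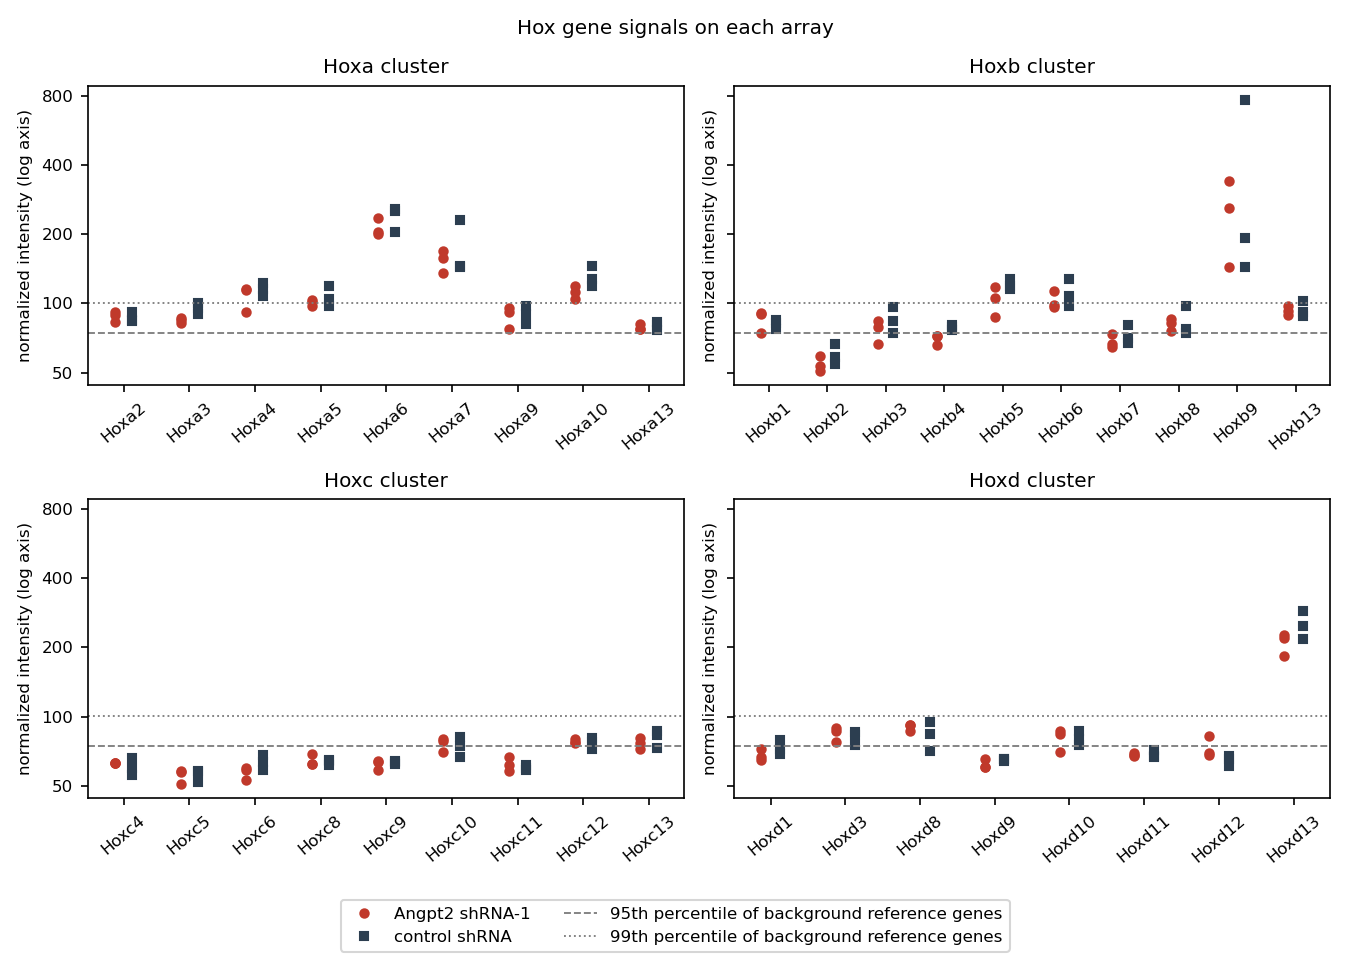
Normalized intensity (log axis) of the 36 Hox genes, 1 panel per cluster with genes in order of position; circles are the 3 Angpt2 shRNA-1 arrays and squares the 3 control shRNA arrays of each gene. The dashed line is the background limit of 74.5 and the dotted line the stricter limit of 100.2; Hoxa lies above the dashed line on every array, while no Hoxc array reaches the dotted one.

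The promoter windows of Hoxa6, Hoxa7 and Hoxd13 are shown because their rows had the highest geometric means (161 to 229) among the members with a window in the RefSeq table (GRCm38.p6). Hoxa5 and Hoxa10, also above the stricter limit, have windows that are not printed. Each is the 250 bases before the start, 5′ to 3′ on the strand of the gene, with matches to the searched motifs in capitals.
Hoxa6, chr6:52208673-52208922, minus strand: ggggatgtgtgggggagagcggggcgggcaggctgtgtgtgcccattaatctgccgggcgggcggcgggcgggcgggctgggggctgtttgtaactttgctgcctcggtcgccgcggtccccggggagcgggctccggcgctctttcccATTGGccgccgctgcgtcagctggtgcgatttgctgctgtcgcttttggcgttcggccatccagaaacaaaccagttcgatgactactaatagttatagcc
Hoxa7, chr6:52218574-52218823, minus strand: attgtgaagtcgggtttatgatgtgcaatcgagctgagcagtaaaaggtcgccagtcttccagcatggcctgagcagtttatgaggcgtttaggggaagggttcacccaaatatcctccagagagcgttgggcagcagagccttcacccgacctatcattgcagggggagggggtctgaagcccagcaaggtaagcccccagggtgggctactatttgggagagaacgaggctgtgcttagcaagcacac
Hoxd13, chr2:74667975-74668224, plus strand: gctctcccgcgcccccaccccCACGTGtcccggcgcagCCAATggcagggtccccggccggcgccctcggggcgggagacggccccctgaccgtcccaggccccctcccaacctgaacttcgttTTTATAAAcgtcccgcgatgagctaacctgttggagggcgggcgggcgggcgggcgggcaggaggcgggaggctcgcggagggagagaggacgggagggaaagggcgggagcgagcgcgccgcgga

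The windows differ in base composition. GC content was 65.2% for Hoxa6, 54.8% for Hoxa7 and 74.4% for Hoxd13, and they held 24, 7 and 31 CpG dinucleotides. Over the 22 windows found for 20 of the Hox members, the median GC content was 59.2% and the median CpG count 12.5, against 52.4% and 6 over all 32851 windows of the table.

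Motifs were searched on both strands. TATAAA, the TATA box core, was in 3 of 22 Hox windows and 12.4% of all windows, and CCAAT, bound by nuclear factor Y, was in 13 of 22 and 33.8%. AGGTCA, a core motif of nuclear receptors, was in 5 of 22 Hox windows and 14.0% of all, and the Pbx and Hox composite motif TGATTNAT in 2 of 22 and 2.82%. CACGTG, the E-box core bound by Mitf and Myc family factors, was in 4 of 22 Hox windows and 6.02% of all. In the printed windows, Hoxd13 held CACGTG 229 bases before its start, CCAAT 212 bases before it and 2 overlapping TATAAA matches on opposite strands, at 126 and 124 bases. Hoxa6 held 1 CCAAT, read as ATTGG on its own strand, and Hoxa7 no match. A match is a description of these letters and not a measured binding site.

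Hoxb9 (gene ID 15417), which takes part in patterning the ribs and the mammary gland, was the Hox gene that varied most between cultures. Its intensities were 261, 143 and 341 in Angpt2 shRNA-1 replicates 1, 2 and 3, against 774, 144 and 192 in control replicates 1, 2 and 3. Control replicate 1 stood far above the other 5 arrays, the groups overlapped, and the highest value was 5.4-fold the lowest. The mean log2 level was 7.87 ± 0.64 in Angpt2 shRNA-1 cultures and 8.12 ± 1.30 in control cultures (SD, n = 3 each). The log2 fold change was -0.25 (SE 0.56, 95% interval -1.51 to 1.01). Within replicate numbers 1, 2 and 3 the log2 differences were -1.57, -0.00 and 0.82, so the 3 did not share a direction. Without control replicate 1 the log2 fold change was 0.49, the opposite sign. Each array measured RNA from a whole culture, so fewer cells with the transcript and less transcript per cell cannot be told apart. The labels name no batch.

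Hoxd13 (gene ID 15433), which shapes the digits and the genital tubercle, had 227, 219 and 184 in Angpt2 shRNA-1 replicates 1, 2 and 3, against 288, 249 and 217 in controls. Its lowest control array was below 2 Angpt2 shRNA-1 arrays, so the groups overlapped, although the Angpt2 shRNA-1 culture was the lower of each replicate number (log2 differences of -0.34, -0.19 and -0.24). The mean log2 level was 7.71 ± 0.16 in Angpt2 shRNA-1 cultures and 7.97 ± 0.20 in control cultures (SD, n = 3 each). The log2 fold change of -0.26 (SE 0.13, 95% interval -0.54 to 0.03) was not called in the limma fit (adjusted p = 1.00). Without control replicate 1 it was -0.15, and that of Hoxa10, described below, was -0.28.

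Hoxa6 (gene ID 15403), which acts with its paralogues in the thoracic skeleton, had 202, 205 and 236 in Angpt2 shRNA-1 replicates 1, 2 and 3, against 205, 257 and 252 in controls. The mean log2 level was 7.74 ± 0.12 in Angpt2 shRNA-1 cultures and 7.89 ± 0.18 in control cultures (SD, n = 3 each). The groups overlapped, and the log2 fold change was -0.15 (SE 0.11, 95% interval -0.40 to 0.11), and -0.25 without control replicate 1. Its neighbour Hoxa7 (gene ID 15404), also a gene of the thoracic skeleton, had 169, 136 and 158 in Angpt2 shRNA-1 replicates 1, 2 and 3, against 232, 146 and 144 in controls. Control replicate 1 was again the highest array, and the other 5 lay close together. The Hoxa7 log2 fold change was -0.14 (SE 0.18, 95% interval -0.54 to 0.27), and 0.09 without control replicate 1.

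**Figure D2:**
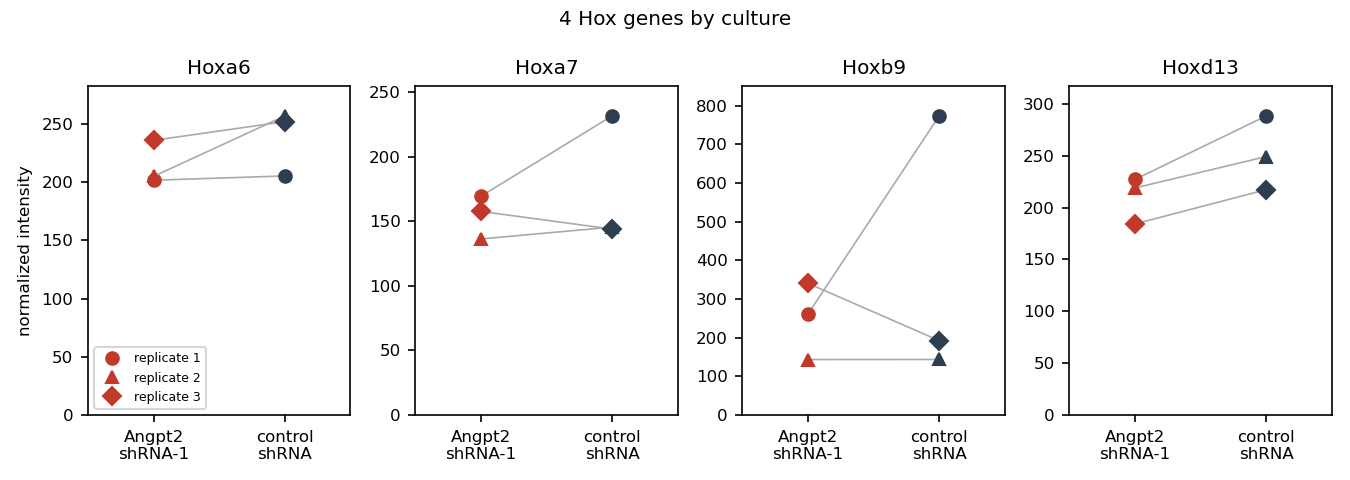
Normalized intensity (linear axis from 0, scaled per panel) of Hoxa6, Hoxa7, Hoxb9 and Hoxd13 in each culture, Angpt2 shRNA-1 on the left and control shRNA on the right; marker shapes give the replicate number and grey lines join equal numbers. Hoxb9 spreads from 143 to 774 with lines in opposite directions, and for Hoxd13 and Hoxa6 all 3 lines are higher at the control end.

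The other Hoxa genes above the limit lay between 76.8 and 146 on every array. Hoxa10, needed for the uterus and the lumbar skeleton, had 105, 119.7 and 112 in Angpt2 shRNA-1 replicates 1, 2 and 3, against 119.5, 128 and 146 in controls. Only the lowest control value was under the highest Angpt2 shRNA-1 value, and the log2 fold change was -0.22 (SE 0.10, 95% interval -0.45 to 0.01). Hoxa4, a gene of the neck and upper thoracic skeleton, had 92.0, 114 and 116 in Angpt2 shRNA-1 replicates 1, 2 and 3, against 123, 115 and 107 in controls. Hoxa5, needed for the lung and trachea, had 97.5, 104 and 102 in Angpt2 shRNA-1 replicates 1, 2 and 3, against 119, 97.1 and 105 in controls. For both, the groups overlapped and control replicate 1 was the highest array. The log2 fold changes were -0.11 for Hoxa4 and -0.08 for Hoxa5, and -0.06 and 0.00 without that array.

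Hoxa3, needed for the thymus and parathyroid, had 84.8, 82.4 and 86.7 in Angpt2 shRNA-1 replicates 1, 2 and 3, against 89.9, 95.8 and 100.1 in controls. Every control array was higher, with a log2 fold change of -0.17 (SE 0.08) on a level only slightly over the background limit. A row shared by Hoxa3 and 5730446D14Rik, which cannot be assigned to either, had the opposite sign (0.18). It had 110, 106 and 118 in Angpt2 shRNA-1 replicates 1, 2 and 3, against 89.8, 96.7 and 109 in controls, with overlap. Hoxa2, which gives the second branchial arch its identity, had 91.4, 89.1 and 82.8 in Angpt2 shRNA-1 replicates 1, 2 and 3, against 83.6, 91.6 and 84.5 in controls. Hoxa9, a regulator of blood stem cells, had 91.7, 77.3 and 95.6 in Angpt2 shRNA-1 replicates 1, 2 and 3, against 89.99, 81.4 and 97.8 in controls. For Hoxa2 and Hoxa9 the groups overlapped fully, with log2 fold changes of 0.02 and -0.03. Hoxa13, a gene of the outer limb and the hindgut, had 77.7, 77.7 and 81.3 in Angpt2 shRNA-1 replicates 1, 2 and 3, against 80.6, 83.3 and 76.8 in controls, with a log2 fold change of -0.02.

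In Hoxb, 2 middle genes joined Hoxb9 above the stricter limit. Hoxb5, a regulator of neural crest and of the shoulder, had 106, 117 and 87.1 in Angpt2 shRNA-1 replicates 1, 2 and 3, against 119, 128 and 115 in controls. The log2 fold change was -0.23 (SE 0.12, 95% interval -0.50 to 0.03) in this row and 0.13 in the second row of Hoxb5, whose intensities were 87.0, 127 and 119 in Angpt2 shRNA-1 replicates 1, 2 and 3, against 103, 94.3 and 104 in controls. The 2 rows of the gene thus differed in sign, and both had overlapping groups. Hoxb6, a gene of thoracic patterning, had 98.7, 114 and 96.4 in Angpt2 shRNA-1 replicates 1, 2 and 3, against 97.1, 127 and 108 in controls, with a log2 fold change of -0.10, and -0.19 without control replicate 1.

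The 4 remaining Hoxb genes above the limit stayed under the stricter one. Hoxb1, which sets the identity of facial motor neurons in the hindbrain, had 74.6, 89.6 and 90.5 in Angpt2 shRNA-1 replicates 1, 2 and 3, against 84.4, 82.0 and 77.1 in controls. Hoxb3, also a hindbrain gene, had 79.3, 83.9 and 66.4 in Angpt2 shRNA-1 replicates 1, 2 and 3, against 74.4, 84.0 and 96.2 in controls. For both, the groups overlapped, and the log2 fold changes were 0.06 and -0.15. The Hoxb3 value was -0.24 without control replicate 1, and -0.05 when leaving out either Angpt2 shRNA-1 replicate 3 or control replicate 3. Hoxb8, known for its role in microglia and grooming behaviour, had 82.5, 85.8 and 75.5 in Angpt2 shRNA-1 replicates 1, 2 and 3, against 97.0, 74.3 and 77.1 in controls. Hoxb13, a gene of the prostate and tail, had 89.3, 97.8 and 92.9 in Angpt2 shRNA-1 replicates 1, 2 and 3, against 103, 92.0 and 88.5 in controls. Control replicate 1 was the highest array for Hoxb8 and Hoxb13, whose log2 fold changes were -0.02 and -0.01, and 0.10 and 0.05 without it.

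The 3 Hoxc genes above the limit, Hoxc10, Hoxc12 and Hoxc13, lie at the tail end of the cluster, and each was under the limit on at least 1 array. Hoxc10, which specifies lumbar motor neurons, had 78.5, 80.0 and 69.8 in Angpt2 shRNA-1 replicates 1, 2 and 3, against 74.7, 66.8 and 81.8 in controls. Hoxc12, a little studied gene of the posterior body, had 77.1, 77.8 and 79.7 in Angpt2 shRNA-1 replicates 1, 2 and 3, against 80.3, 77.1 and 72.0 in controls. The groups overlapped for both, with a log2 fold change of 0.03 for each gene. Hoxc13, which is needed for hair and nails, had 76.8, 72.3 and 80.2 in Angpt2 shRNA-1 replicates 1, 2 and 3, against 83.4, 72.8 and 86.2 in controls, with a log2 fold change of -0.08. The other 6 Hoxc genes, Hoxc4, Hoxc5, Hoxc6, Hoxc8, Hoxc9 and Hoxc11, had geometric means between 55.4 (Hoxc5) and 63.8 (Hoxc8).

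In Hoxd, 3 genes besides Hoxd13 were above the limit. Hoxd3, which patterns the first neck vertebrae, had 86.6, 77.5 and 88.8 in Angpt2 shRNA-1 replicates 1, 2 and 3, against 85.3, 75.3 and 83.2 in controls. Hoxd8, a gene of the lower thoracic and lumbar skeleton, had 86.5, 91.5 and 91.7 in Angpt2 shRNA-1 replicates 1, 2 and 3, against 84.1, 94.5 and 71.0 in controls. Both had overlapping groups, with log2 fold changes of 0.05 and 0.12. The Hoxd8 value was 0.01 without control replicate 3, and 0.22 when control replicate 2 was left out. Hoxd10, which specifies hindlimb motor neurons, had 70.0, 84.3 and 86.6 in Angpt2 shRNA-1 replicates 1, 2 and 3, against 79.8, 75.2 and 86.3 in controls, with a log2 fold change of -0.01. Under the limit were Hoxd1, Hoxd9, Hoxd11 and Hoxd12, with geometric means between 63.5 (Hoxd9) and 70.3 (Hoxd1), and in Hoxb the genes Hoxb2 (56.8), Hoxb4 (74.2) and Hoxb7 (70.4).

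Hoxa11 and Hoxd4 were measured only in rows shared with another gene. Rows that name 2 genes cannot be assigned to either. The brighter row of Hoxa11 and its antisense gene Hoxa11os had 161, 131 and 111 in Angpt2 shRNA-1 replicates 1, 2 and 3, against 132, 152 and 126 in controls. Its groups overlapped, with a log2 fold change of -0.04. The other row of this pair had 92.4, 100.6 and 89.7 in Angpt2 shRNA-1 replicates 1, 2 and 3, against 88.9, 84.8 and 87.1 in controls. There every Angpt2 shRNA-1 array was above every control array (log2 fold change 0.11), so the 2 rows differed in sign. The row of Hoxd4 and Hoxd3 had 106, 109.8 and 117 in Angpt2 shRNA-1 replicates 1, 2 and 3, against 123, 132 and 125 in controls. Every control array of the Hoxd4 and Hoxd3 row was above every Angpt2 shRNA-1 array, with a log2 fold change of -0.20, whereas the row of Hoxd3 alone had 0.05.

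The comparison of the groups asked whether Hox genes differed between Angpt2-silenced and control cultures. The limma fit over all genes called 0 of the 36 Hox genes, and over all 22180 genes it called 0 as well (0.0%), so the count of Hox genes is that of the background. At an unadjusted p under 0.05 there were 0 Hox genes, against 835 genes (3.76%) of all. With the replicate number as a block, 3 of the 36 Hox genes were under that unadjusted value, against 1015 genes (4.58%) of all. The share among Hox genes was the larger, which was not tested. None of the Hox genes was called, the lowest adjusted p being 0.997.

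Of the Hox genes, 26 had a negative and 10 a positive log2 fold change, with a median of -0.05, against 54.8% negative and a median of -0.01 over all genes. After quantile normalization or centring of each array on its median, 22 were negative and 14 positive, against 47.9% and 48.2% negative of all genes. Leaving out control replicate 1 gave 21 negative, 15 positive and a median of -0.02, against 53.0% negative of all genes. Leaving out both arrays numbered 1, a setting added after seeing the data, gave 19 negative, 17 positive and a median of -0.01, against 51.8%. Within replicate numbers 1, 2 and 3 the median log2 difference of the Hox genes was -0.11, -0.03 and -0.01. Over all genes it was -0.03, -0.02 and 0.003. The cause of the excess of negative values was not tested. By cluster the medians were -0.11 in Hoxa, -0.12 in Hoxb, 0.01 in Hoxc and -0.01 in Hoxd.

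Control replicate 1 was the highest array for 10 of the 36 Hox genes (27.8%), control replicate 2 for 10 and control replicate 3 for 9, against 2, 0 and 5 for Angpt2 shRNA-1 replicates 1, 2 and 3. The share of control replicate 1 was close to its 25.8% over all genes. Of all 22180 genes, control replicates 2 and 3 were the highest array for 4736 and 3153. Angpt2 shRNA-1 replicates 1, 2 and 3 were the highest for 2438, 2578 and 3559. The control arrays together thus held a larger share of the highest values among Hox genes than among all genes, which was not tested. The 9 genes above the stricter limit all had negative log2 fold changes, between -0.26 and -0.08. Of all genes above the lower background limit, 53.2% were negative, and the share above the stricter limit is not given here. The second row of Hoxb5 was positive (0.13). Quantile normalization or centring of the arrays left all 9 negative, between -0.24 and -0.06. These shifts were too small to turn a sign, so they are no separate check. Without control replicate 1, Hoxa5, Hoxa7 and Hoxb9 were positive, and without both arrays numbered 1 Hoxa4 was positive as well. Leaving out Angpt2 shRNA-1 replicate 1 turned Hoxa4, Angpt2 shRNA-1 replicate 2 turned Hoxb9 and control replicate 2 turned Hoxb6.

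The groups did not overlap for 3 Hox genes, against 1998 genes (9.01%) of all. Hoxa3 and Hoxb4 had every Angpt2 shRNA-1 array below every control array, as did 5.48% of all genes. Hoxb4, known for expanding blood stem cells, had 71.9, 72.2 and 66.2 in Angpt2 shRNA-1 replicates 1, 2 and 3, against 76.5, 80.4 and 78.8 in controls (log2 fold change -0.17, SE 0.08). Hoxd12, a digit gene, was the one with every Angpt2 shRNA-1 array above the controls, as were 3.53% of all genes, with 69.2, 67.9 and 82.2 in Angpt2 shRNA-1 replicates 1, 2 and 3, against 65.5, 67.5 and 60.9 in controls (log2 fold change 0.17, SE 0.10). The values of Hoxb4 straddled the background limit and the Hoxd12 mean was under it, and the share of 3 in 36 is near the background share.

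**Figure D3:**
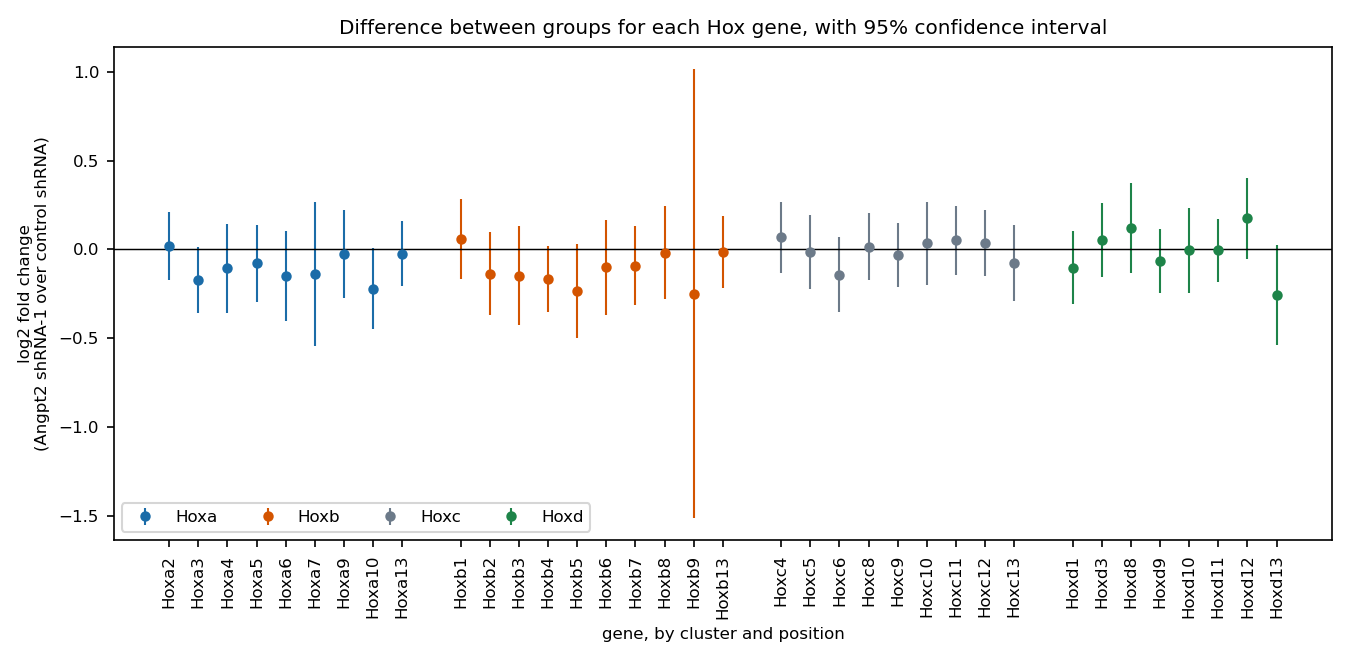
Log2 fold change (Angpt2 shRNA-1 over control shRNA) of the 36 Hox genes by cluster and position, points with 95% confidence intervals from the limma fit of 3 against 3 arrays. Every interval includes 0, and that of Hoxb9 (-1.51 to 1.01) is the widest.

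The partners of Hox proteins on DNA, the TALE homeodomain cofactors, were all above the background limit in this line, and Pbx4, with a geometric mean of 95.1, was under the stricter one. Meis2 had 1157, 1073 and 1042 in Angpt2 shRNA-1 replicates 1, 2 and 3, against 1243, 1247 and 1097 in controls. Its groups overlapped, with a log2 fold change of -0.13 (SE 0.09), and it was bright on every array. Of 8 measured TALE genes 0 were called (1 had an unadjusted p under 0.05), 2 had positive and 6 negative log2 fold changes, with a median of -0.08. The 2 with the largest absolute values were Pknox2 (0.20, SE 0.09), with 144, 131 and 137 in Angpt2 shRNA-1 replicates 1, 2 and 3 against 114, 128 and 117 in controls and no overlap, and Pknox1 (-0.14, SE 0.11). Pknox1 was at -0.05 once its highest array, control replicate 1, was left out.

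Among the chromatin genes linked to the repressed and active Hox states, 0 of 25 Polycomb and 0 of 12 Trithorax and H3K27 demethylase genes were called, with 3 and 0 at an unadjusted p under 0.05. All 37 were above the background limit. The Polycomb list had 11 positive and 14 negative values with a median of -0.06. Pcgf3, a ring-finger subunit of a variant Polycomb repressive complex, had 519, 559 and 471 in Angpt2 shRNA-1 replicates 1, 2 and 3, against 591, 704 and 689 in controls, without overlap (log2 fold change -0.36, SE 0.10). Mtf2, an accessory subunit of the methyltransferase complex, had 273, 258 and 305 in Angpt2 shRNA-1 replicates 1, 2 and 3, against 163, 194 and 275 in controls, with overlap (0.43, SE 0.17). The Mtf2 value was 0.27 without control replicate 1 and 0.64 without control replicate 3. The catalytic subunit Ezh2 had a log2 fold change of 0.00 (SE 0.09). The Trithorax list had 6 positive and 6 negative values, and its largest were Dpy30, a shared subunit of H3K4 methyltransferases (0.29, SE 0.23), and the demethylase Kdm6b (-0.26, SE 0.15). Without control replicate 1 they were 0.44 and -0.09, and without control replicate 3 Dpy30 was at 0.04.

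Upstream inputs of the clusters were next. Retinoic acid, which opens the low-numbered ends, was represented by 17 genes, of which 0 were called (2 at an unadjusted p under 0.05), 7 had positive and 10 negative values and the median was -0.01. Aldh1a3, a retinaldehyde dehydrogenase that makes retinoic acid, had 147, 133 and 137 in Angpt2 shRNA-1 replicates 1, 2 and 3, against 129, 115 and 101 in controls. Each Angpt2 shRNA-1 array was higher (log2 fold change 0.28, SE 0.10). The retinoic acid binding protein Crabp1 followed with 0.26 (SE 0.10), and with 0.16 without Angpt2 shRNA-1 replicate 2. Cdx genes, which activate the middle of the clusters, and the ParaHox genes gave 0 called of 6, 5 positive and 1 negative, with a median of 0.13, and 3 were above the background limit. Pdx1 (0.21) and Cdx1 (0.20) had the largest absolute log2 fold changes of those, both with overlapping groups. Both were 0.35 without control replicate 1, while Cdx1 was at 0.10 without control replicate 2 and Pdx1 at 0.05 without control replicate 3.

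The genes that flank the clusters gave 0 called of 15 (1 at an unadjusted p under 0.05), 6 positive and 9 negative, with a median of -0.01. Hibadh, a valine-degrading enzyme next to Hoxa, had a log2 fold change of 0.23 (SE 0.10), and Snx10, a sorting nexin near the other end of Hoxa, 0.32 (SE 0.17). The Snx10 value was 0.55 without control replicate 1, and 0.17 when control replicate 3 was left out. Hibadh was bright, with 1151, 1323 and 1253 in Angpt2 shRNA-1 replicates 1, 2 and 3, against 976, 1052 and 1148 in controls. So was Snx10, with 639, 657 and 622 in Angpt2 shRNA-1 replicates 1, 2 and 3, against 703, 456 and 417 in controls. The Hibadh groups did not overlap by a narrow margin, and the Snx10 groups did. Evx1, the homeobox gene that ends the Hoxa cluster, was under the background limit with a geometric mean of 72.9, and Evx2, at the end of Hoxd beside Hoxd13, was just over it with 77.2.

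The noncoding genes of the clusters gave 0 called of 7, 2 positive and 5 negative, with a median of -0.01. Hotair, a noncoding RNA of the Hoxc cluster, ranged from 65.8 to 69.7 on Angpt2 shRNA-1 arrays and from 56.3 to 69.7 on control arrays, all under the background limit. Of those above it, Mir196a-2 (0.10, SE 0.22) and Hoxd3os1 (-0.01, SE 0.10) had the largest absolute log2 fold changes. They were 0.38 and 0.05 without control replicate 1, and without control replicate 2 Mir196a-2 was at -0.08, so neither kept its sign. The microRNAs of the clusters are shown because miR-196 is known to direct cleavage of Hoxb8 mRNA and because paralogues share their seeds (bases 2 to 8, in capitals). The sequences are from RefSeq (GRCm38.p6), 5′ to 3′.
miR-10b-5p, chr2:74726074-74726096, plus strand: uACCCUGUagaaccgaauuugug
miR-10a-5p, chr11:96317186-96317208, plus strand: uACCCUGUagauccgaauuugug
miR-196a-5p from Mir196a-2, chr15:102973365-102973386, plus strand: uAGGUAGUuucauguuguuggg
miR-615-3p, chr15:103014969-103014990, plus strand: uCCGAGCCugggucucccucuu

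The rows of these genes target the transcript of the miRNA gene and not the mature strand. Mir10b had 45.0, 45.7 and 42.3 in Angpt2 shRNA-1 replicates 1, 2 and 3, against 49.0, 43.1 and 44.3 in controls. Mir196a-2 had 95.9, 75.3 and 74.3 in Angpt2 shRNA-1 replicates 1, 2 and 3, against 112, 59.7 and 65.6 in controls. Replicate number 1 was the highest in both groups for Mir196a-2, and the groups overlapped for both genes. Mir196a-1, which encodes the same mature strand from within Hoxb, ranged from 47.7 to 53.3 on Angpt2 shRNA-1 arrays and from 54.3 to 60.4 on control arrays, without overlap, and Mir615 from 62.1 to 73.1 and from 65.3 to 72.1. Mir196a-1, Mir10b and Mir615 were under the background limit on every array.

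Other homeobox and T-box genes of neural crest and limb gave 0 called of 16, 8 positive and 8 negative, with a median of -0.01. Pax3, a regulator of melanocyte precursors, had 2275, 2120 and 2227 in Angpt2 shRNA-1 replicates 1, 2 and 3, against 2798, 2464 and 2139 in controls, so the groups overlapped (log2 fold change -0.15, SE 0.11, and -0.06 without control replicate 1). Alx1, a gene of the facial skeleton, had 840.3, 873 and 953 in Angpt2 shRNA-1 replicates 1, 2 and 3, against 1114, 915 and 912 in controls. The pair named by largest absolute log2 fold change was Alx4 (-0.21, SE 0.09) and Dlx3 (0.19, SE 0.09). All 106 genes of these lists together gave 0 calls in the limma fit. Of the 106, 8 had an unadjusted p under 0.05, a larger share than the 3.76% of all genes, which was not tested.

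**Figure D4:**
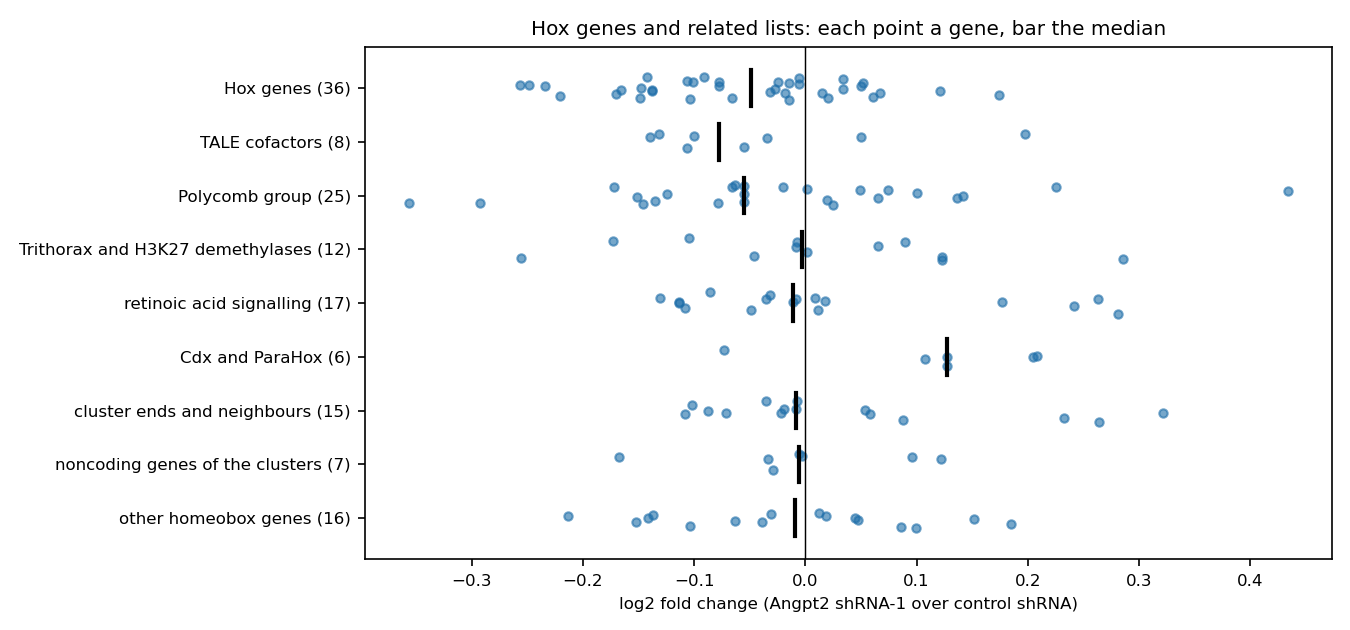
Log2 fold change (Angpt2 shRNA-1 over control shRNA) of each Hox gene and of each gene in the related lists, with the number of genes in parentheses; points are genes, spread vertically for legibility, and black bars are medians. The medians lie between -0.08 and 0.13, with 0 genes called in any row.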

How the data were processed

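Angpt2 shRNA-1 and control shRNA cultures of RET cells were profiled on 6 Affymetrix arrays, 3 per group. The deposited values were linear normalized intensity for each transcript cluster, from 28.1 to 12624, with array medians of 74.5 to 76.2; the labels leave out how the authors corrected, summarized and normalized them. The number of arrays limits the precision. Of 41345 rows, 40425 were complete and 23521 carried exactly 1 symbol in the platform annotation. No genome build is named for that annotation, so gene coordinates are left out. The row with the highest mean represented each gene, which left 22180 genes.

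From the deposited intensity, log2 values without a pseudocount were fitted in limma (version 3.58.1, under R 4.3.3; lmFit, then eBayes). Two-sided p-values were adjusted by the Benjamini-Hochberg method across the genes tested and called under 0.05. The fit was tested on simulated data. All log2 fold changes are Angpt2 shRNA-1 over control shRNA, with intervals at 95%. The smallest two-sided p of an exact permutation test with 3 arrays per group is 0.1. Same-numbered arrays of the 2 groups deviated together from their group means (correlations of 0.13, 0.21 and 0.14, against -0.19 to 0.06 for other pairs). A fit with the replicate number as a block was therefore run beside the fit without it. The labels state no pairing, and it was read from the same values that were fitted. Deviations from a group mean cancel out within the group, so the lower correlations of other pairs follow in part from the higher ones.

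The Hox members and the lists of related genes were chosen with earlier results of these data known. Members above the background limit were named with every value; from each related list, the 2 members above it with the largest absolute log2 fold change were named. Genes named besides these (Meis2, Ezh2, Evx1, Evx2, Pax3, Alx1, Hotair and the miRNA genes) were picked after their values were seen. Alternatives covered the pairing, scaling, filters, row choice, variance model, pseudocount, background limit and each array left out.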

Additional observations from a re-analysis of the deposited data

How the results depend on the processing

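None of the refits called a Hox gene or a gene of the related lists, including the one added after seeing the data that leaves out both arrays numbered 1, and the largest number of genes called in any of them was 2. Over all genes, 2 were called with the replicate number as a block (replicate pairing), 1 after quantile normalization, 1 after centring the arrays, 1 with the trend and robust options and 1 with both arrays numbered 1 left out, and leaving out 1 array in turn gave 0 to 2, with 1 without control replicate 1 and 2 without control replicate 2. The pairing changed no other call. The median log2 fold change of the Hox genes was -0.14 among genes above the median level, where 12 Hox genes remained, -0.0063 with both arrays numbered 1 left out, and -0.075 to -0.019 with 1 array left out. The count of Hox genes above background, 23, was 9 with the 99th percentile limit, 12 with the median of all genes as the limit and 14 with a limit from markers of other cell types, which was added after seeing the data. It was 28 with the 90th percentile, and 22 to 24 with 1 array left out. Signal over background thus limits which rows can be called bright. The limits lie on the same scale, so the 9 Hox genes that passed all of them are those above the 99th percentile limit. The lower limits are no separate check of these 9.

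Single Hox genes changed sign under some settings. Quantile normalization gave 3.8e-04 for Hoxb13 and 0.0084 for Hoxd10, centring the arrays gave 0.0015 and 0.010, and array weights gave 0.027 for Hoxb8 and 0.012 for Hoxb13. Leaving out both arrays numbered 1, added after seeing the data, gave -0.034 for Hoxa2, 0.050 for Hoxa4, 0.027 for Hoxa5, 0.019 for Hoxa7, 0.089 for Hoxb8, 0.41 for Hoxb9, 0.079 for Hoxb13 and 0.085 for Hoxd10. With 1 array left out in turn, the ranges were -0.0098 to 0.062 for Hoxa2, -0.17 to 0.0022 for Hoxa4, -0.15 to 8.3e-04 for Hoxa5, -0.26 to 0.088 for Hoxa7, -0.10 to 0.065 for Hoxa9, -0.055 to 0.0032 for Hoxa13, -0.19 to 0.0039 for Hoxb6, -0.091 to 0.10 for Hoxb8, -0.72 to 0.49 for Hoxb9, -0.060 to 0.048 for Hoxb13, -0.042 to 0.10 for Hoxc10, -0.0093 to 0.070 for Hoxc12, -0.0018 to 0.11 for Hoxd3 and -0.063 to 0.090 for Hoxd10. The genes above the limit that kept their sign ranged from -0.21 to -0.13 for Hoxa3, -0.25 to -0.091 for Hoxa6, -0.28 to -0.14 for Hoxa10, 0.012 to 0.15 for Hoxb1, -0.24 to -0.049 for Hoxb3, -0.33 to -0.12 for Hoxb5, -0.15 to -0.030 for Hoxc13, 0.012 to 0.22 for Hoxd8 and -0.36 to -0.15 for Hoxd13. The cause was not tested. In the other 368 combinations of a gene and an alternative the sign was kept, against 35 in which it turned. Many of the 368 could not turn. The block, the level filters, the fit on all complete rows and the trend and robust options left each log2 fold change as it was. Taking the mean of all rows changed only Hoxb5. The tally is therefore no measure of stability. Of the 23 genes above the limit, 14 turned under some setting.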
